A study of Mus musculus with 4 samples.

Results

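The B cell peaks are regions of open chromatin that were far more often open in B cell nuclei than in any other pool of cell types. The nuclei came from mouse inguinal white adipose tissue (iWAT). The B cell peaks numbered 968 of the 189598 peaks of the data set. They were selected on measured accessibility, by pooling the nuclei of all mice into 7 pools by their deposited cell type: B cells, adipocytes (white and beige), adipocyte progenitors (APC1 and APC2), vascular endothelial cells (VEC), vascular smooth muscle cells (VSMC), myeloid cells (macrophages and dendritic cells) and T cells. In each pool the entries of a peak, which are the nuclei with reads in it, were divided by all entries of the pool and multiplied by 1000000 (CPM). A peak was a member if its B cell CPM was at least 20 and at least 4 times that of each other pool, so the difference between B cells and the other pools is what the rule used and is described here without a test. The same rule gave 1548 peaks for the T cell pool and 643 for the myeloid pool.

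Single-nucleus ATAC-seq uses the Tn5 transposase, which inserts sequencing adapters into accessible DNA, and barcodes assign each read to a nucleus. The tissue came from 8-week-old male C57BL/6 mice, 21 in all, with 3 in each of 7 groups. The day0RT mice were kept at 22 °C, and the day1C, day3C and day7C mice in the cold at 6.5 °C by the labels. The day1CL, day3CL and day7CL mice were given 1 mg/kg of the β3-adrenergic agonist CL-316,243. Per the study the agonist was given daily at 22 °C, so CL and cold groups also differ in housing temperature. No transgene or deletion is named for any group. The labels do not tie the 4 sequenced lanes to single mice, so mouse, group and cell type were taken from the deposited annotation of each nucleus. Of the 32552 nuclei, 11967 were annotated as B cells, with 66 to 860 per mouse and a median of 974 open peaks per nucleus, and B cell entries per mouse ran from 50392 to 1654462.

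Some features of the libraries limit the comparisons between mice. In day1CL mouse 3, day3CL mouse 2 and day3C mouse 1, T cell nuclei numbered 66, 21 and 87 against at least 397 in each of the other mice, and the first of these also held the fewest B cell nuclei, so that 1 entry there equals 19.8 CPM. Of the barcode sequences, 4218 occurred in more than 1 mouse, always in mice of the same treatment and number and never of the same day. Nuclei that shared a barcode had a median overlap of 1.44% in their open peaks, over 500 pairs, and random nuclei had 1.41%. The labels name no batch or library for a mouse, and mice of 1 day under cold and CL shared no barcode. Whether mice of different days were prepared separately was not tested. If they were, a change from day0RT could not be told apart from a difference in preparation. Per the study, day0RT tissue was taken before any intervention. No treated group has an untreated group of its own day.

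B cells are lymphocytes that recognise antigen through a membrane antibody, the B cell receptor, and can become antibody-secreting plasma cells. Their identity is set by transcription factors, among them E proteins, EBF1 and PAX5, and by the octamer-binding factor OCT2 (POU2F2) with its coactivator OBF1 (*Pou2af1*), which act on antibody gene promoters and enhancers. B cells take up antigen and present it on MHC class II under the control of CIITA. The inguinal fat pad also holds a lymph node, so that B cells of the fat and of the node can both be in such tissue.

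The sequences below are examples of the DNA of these regions and do not stand for all members. Each is the plus strand, 5′ to 3′, of up to 300 bases at the centre of a member, from GRCm38 (mm10), the build of the deposited peaks, and annotated exons were left out. Capitals mark words that match the consensus of 5 B cell factors on either strand: the octamer ATGCAAAT of POU2F factors, CCCNNGGGA of EBF factors, GAGGAAGT of PU.1 and related ETS factors, GGAANTGAA of ETS factors with IRF4 or IRF8, and CAGGTG, an E-box of E proteins. A word is a match of letters, not a measured binding site. The first 2 are the strongest members within or just upstream of *Pax5* and *Cd79a*, and the next 2, chosen after their values were seen, are members with an octamer upstream of *Ebf1* and *Lmo2*. Each sequence shown holds a word, but 401 members (41.4%) held none of the 5 in the central 300 bases. The strongest members of *Ebf1* and *Fcrl1* were among those without a word.
Pax5 intron, chr4:44704359-44704658: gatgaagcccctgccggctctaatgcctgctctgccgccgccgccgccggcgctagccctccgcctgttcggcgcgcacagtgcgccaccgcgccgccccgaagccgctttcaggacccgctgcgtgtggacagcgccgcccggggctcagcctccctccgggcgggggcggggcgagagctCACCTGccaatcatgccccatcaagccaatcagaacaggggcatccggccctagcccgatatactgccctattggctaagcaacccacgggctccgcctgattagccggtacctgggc
Cd79a start, chr7:24897227-24897380: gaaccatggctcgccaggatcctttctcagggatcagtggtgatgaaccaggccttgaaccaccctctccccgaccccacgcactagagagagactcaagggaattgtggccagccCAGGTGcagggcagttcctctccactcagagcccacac
Ebf1 upstream, chr11:44574863-44575162: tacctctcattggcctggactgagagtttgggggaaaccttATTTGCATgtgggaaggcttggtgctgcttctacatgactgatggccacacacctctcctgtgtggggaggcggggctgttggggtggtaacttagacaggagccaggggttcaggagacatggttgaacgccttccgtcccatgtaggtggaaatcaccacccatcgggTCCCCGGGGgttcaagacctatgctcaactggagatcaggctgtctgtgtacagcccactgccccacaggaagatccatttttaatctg
Lmo2 upstream, chr2:103895074-103895373: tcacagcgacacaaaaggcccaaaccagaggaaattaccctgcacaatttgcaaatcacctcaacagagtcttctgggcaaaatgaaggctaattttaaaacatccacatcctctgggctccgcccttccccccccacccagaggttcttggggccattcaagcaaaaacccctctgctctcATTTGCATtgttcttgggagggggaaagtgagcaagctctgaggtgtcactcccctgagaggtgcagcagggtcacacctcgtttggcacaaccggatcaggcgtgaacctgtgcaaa

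The *Pax5* and *Cd79a* sequences each hold 1 E-box. The *Ebf1* sequence holds the octamer, read on the minus strand, and an EBF word. The *Lmo2* sequence holds an octamer alone. The peak upstream of *Ebf1* had a B cell CPM of 107 and 12.6 times that of the next pool, and the peak upstream of *Lmo2* had 92.4 and 13.2 times.

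Members were moderately open peaks that few other nuclei had. B cell CPM ran from 20.0 to 152, with a median of 36.2 and quartiles of 27.5 and 52.1, and the ratio to the highest other pool ran from 4.00 to 16.1 with a median of 6.03. The median member was open in 4.77% of B cell nuclei, 0.839% of myeloid nuclei, 0.557% of adipocyte nuclei and 0.530% of T cell nuclei. The threshold cut through a continuous range: the members nearest to it had ratios of 4.003, 4.005 and 4.007 and the nearest peaks outside 3.999, 3.998 and 3.992. The lowest B cell CPM inside was 20.0, and 3 peaks outside had 19.95 each. Myeloid cells were the next highest pool for 483 members (49.9%), T cells for 247 (25.5%), VEC for 111, VSMC for 70, progenitors for 46 and adipocytes for 11. The VEC and VSMC pools were thin, with 614132 and 766681 entries against 15785877 of B cells, so that 1 entry there equals 1.63 and 1.30 CPM.

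The share of B cell entries that fell in these peaks was similar in every mouse. Not every single member had a B cell entry in every mouse. Of the 968, 808 had one in day1CL mouse 3 and 962 in day3CL mouse 2. Members took up 4.16% ± 0.189 (SD, n = 21 mice) of all B cell entries, from 3.79% to 4.53%, and 4.14% in the 18 mice with at least 100 T cell nuclei. Among the other cell types with at least 10 nuclei in a mouse, the mean over mice was highest in macrophages at 0.671%, in CD4 T cells at 0.513% and in dendritic cells at 0.465%, and lowest in beige adipocytes at 0.165%. The highest single value outside B cells was 1.65%, in APC1 nuclei of 1 mouse. The means of all other types lay between those of B cells and of fat cells, with white adipocytes at 0.181%. VEC had 0.329%, APC1 0.314%, APC2 0.242% and VSMC 0.219%. That B cells were highest follows from the rule.

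**Figure D1:**
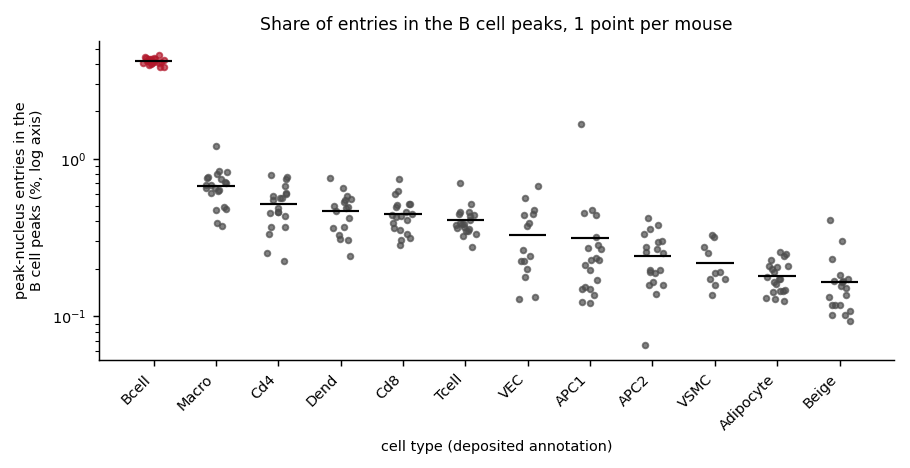
Percentage of all peak entries that fell in the 968 B cell peaks (y axis, log scale) for each annotated cell type (x axis). Each point is 1 mouse with at least 10 nuclei of the type and the line is the mean. All 21 B cell points lie between 3.79% and 4.53%, above every point of the other types.

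Nuclei were compared at equal depth by drawing 500 entries from each. B cell nuclei then had a median of 21 members open, with 5% of nuclei under 13 and 5% over 30, and 99.0% had at least 10. At least 10 were open in 8.70% of CD4 T cell nuclei, 6.17% of macrophages, 5.71% of dendritic cells, 5.02% of CD8 T cells and 0.635% of white adipocytes. Nuclei with fewer than 500 entries, 1608 of them B cells, were left out. Without thinning, the median B cell nucleus had 42 members open and 98.6% had at least 10. At least 10 were then open in 29.5% of macrophages, 22.6% of dendritic cells, 19.6% of white adipocytes and 13.4% of CD4 T cells. Whether the T cell and myeloid nuclei that pass 10 are doublets with a B cell, carry free DNA or use these regions was not tested.

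The 10 members with the highest B cell CPM ran from 118 to 152. First was a peak 15.8 kb from the start of *Iglc4*, a lambda light chain constant gene, at chr16:19178792-19180302. Its B cell CPM over the 21 mice was 130 at the lowest, 158 at the median and 218 at the highest, and no T cell library passed 26.6. It was open in 20.1% of B cell nuclei.

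Second was a peak in an intron of *Ciita*, the master regulator of MHC class II genes, at chr16:10515717-10516712, with 113, 138 and 183 CPM over the mice in the same order. A further antigen presentation gene, *H2-DMb2*, a chain of the complex that loads peptide on MHC class II, held an intronic member of 123 CPM. The fourth, at chr12:113227651-113228972 and 130 CPM, lay between genes 31.9 kb downstream of the start of *Igha*, the constant gene of IgA. In mice the 3′ regulatory region of the heavy chain locus, a group of enhancers, is known to lie downstream of *Igha*. The remaining 6 were intronic in *Txndc11* (137 CPM), *Dok3* (127), *Ebf1* (119) and *Fchsd2* (118), 79.1 kb from the start of *Fam43a* (121) and 27.7 kb from that of *Pgap1* (119). In all 10, the lowest B cell value of any mouse was above the highest T cell value of any mouse. These peaks were chosen on the pooled values of the same mice, so this is no separate support. The T cells of day3CL mouse 2 were 21 nuclei, where a peak can lack entries for want of depth. That limit holds for every T cell maximum given for a single peak. The *Txndc11* peak was the least selective of them, at 4.09 times the T cell pool, which had 33.6 CPM.

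The largest ratios belonged to other peaks. None of the 10 members with the largest ratios, ranked with any pool at 0 set to 3 entries, was among the 10 with the highest CPM. First in that rank, a peak in an intron of *Armc9*, at chr1:86253225-86254161, had 34.9 CPM in B cells and 2.35 in T cells, a ratio of 14.9. A peak covering the start of *Fcer2a*, the low-affinity IgE receptor CD23 of mature B cells, had 75.6 CPM and a ratio of 13.8. A peak 4.46 kb from the start of *Cd79b*, a signalling chain of the B cell receptor, had 86.3 CPM and 13.7, and one 978 bases from the start of *Iglc3* had 91.2 CPM and 13.6. The peak in an intron of *Osbpl10* (37.6 CPM, ratio 13.4) had no entry in day1CL mouse 3, which held 66 B cell nuclei, and at least 28.3 CPM in each of the 18 mice with at least 100 T cell nuclei.

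Gene lists by role show where members fell. A gene was given each peak that overlaps its body or the 2000 bases upstream. Over all protein-coding and antibody constant genes with a peak, 368 of 17182 (2.14%) held a member. Members were 504 of the 115772 peaks given to these genes (0.435%). The study named its clusters from accessible genes and peaks, marker genes, gene function terms and transcription factor motifs of these nuclei. It also compared them with public single-cell RNA data. The listed genes and the words below are therefore not independent of the annotation. Of 16 transcription factors, 8 held 25 members among 433 peaks (5.77%). *Pax5*, the factor that commits cells to the B lineage, held 8 of its 27 peaks as members, with B cell CPM from 34.2 to 100. *Ebf1*, which acts with PAX5 in early B cells and is also used in fat, held 6 of 109, from 22.7 to 119. *Ets1* held 5 of 45 and *Spib*, the factor close to PU.1, 2 of 4.

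*Pou2af1*, *Bcl11a*, *Ikzf3* and *Tcf3* held 1 member each, at 23.2, 51.9, 34.7 and 20.3 CPM. No member fell in *Pou2f2*, *Bach2*, *Foxo1*, *Mef2c*, *Id3*, *Irf8*, *Irf4* or *Bcl6*. The strongest *Pax5* member had 59.5 CPM in the lowest mouse, which was day1CL mouse 3, 97.9 at the median and 130 in the highest, and T cells had at most 17.7 in any mouse. The strongest *Ebf1* member, in an intron, had 59.5, 115 and 146 CPM in the same order and T cells at most 26.6. The *Tcf3* member, close to the threshold, ranged from 2.84 to 27.7 CPM over the mice.

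The receptor list had the highest share of members. Of 16 genes of the B cell receptor and its coreceptors, 10 held 16 members among 61 peaks (26.2%). The peak at the start of *Ms4a1*, which encodes CD20, had 106 CPM against 9.72 in the next pool, myeloid cells. The peak at the start of *Cd79a*, the partner of *Cd79b*, had 81.0 against 7.73 in T cells. *Cr2*, the complement receptor CD21, held 1 at its start (74.6 CPM), *Fcmr*, the IgM Fc receptor, 2 (up to 100.0), *Fcrl1* 3 and *Cd22* and *Fcrla* 2 each.

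Signalling genes downstream of the receptor formed another list. Of 14, 8 held 19 members among 321 peaks (5.92%): *Bank1*, a B cell adaptor, held 5 of 29, *Rasgrp3*, a Ras activator, 4 of 19, *Blnk*, the linker between SYK and BTK, 3 of 10, and the kinases *Blk* and *Btk* 2 each. *Plcg2*, *Prkcb* and *Ralgps2* held 1 each. The strongest were those in *Plcg2* (69.6 CPM), *Blnk* (65.5) and *Bank1* (61.0).

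Of 13 antigen presentation genes, 2 (15.4%) held 5 members among 81 peaks (6.17%), and 2 of these members were among the strongest. The genes were *Ciita*, with 4 of 16 peaks from 25.5 to 140 CPM, and *H2-DMb2*. No peak of *H2-Aa*, *H2-Ab1*, *H2-Eb1* or *Cd74* met the rule. Homing and survival genes held 4 members among 85 peaks (4.71%). Among them were those of *Tnfrsf13c*, the BAFF receptor (76.3 CPM), *Ccr6*, a chemokine receptor (43.8), and *Tnfrsf13b*, which encodes TACI (30.1). Lists of germinal centre and plasma cells, of B-1 and marginal zone cells and of early development had 1 gene each with a member. These were *Mzb1* (2 members), *Dtx1* (1) and *Vpreb3* (2), or 4.76%, 1.22% and 10.5% of the 42, 82 and 19 peaks of the lists. In the same order, all peaks of the lists took up 0.0437%, 0.0651% and 0.0186% of B cell entries. They took up 0.0361%, 0.0693% and 0.0290% of T cell entries. *Prdm1*, *Sdc1* and *Rag2* held none, and *Rag1* had no peak at all.

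**Figure D2:**
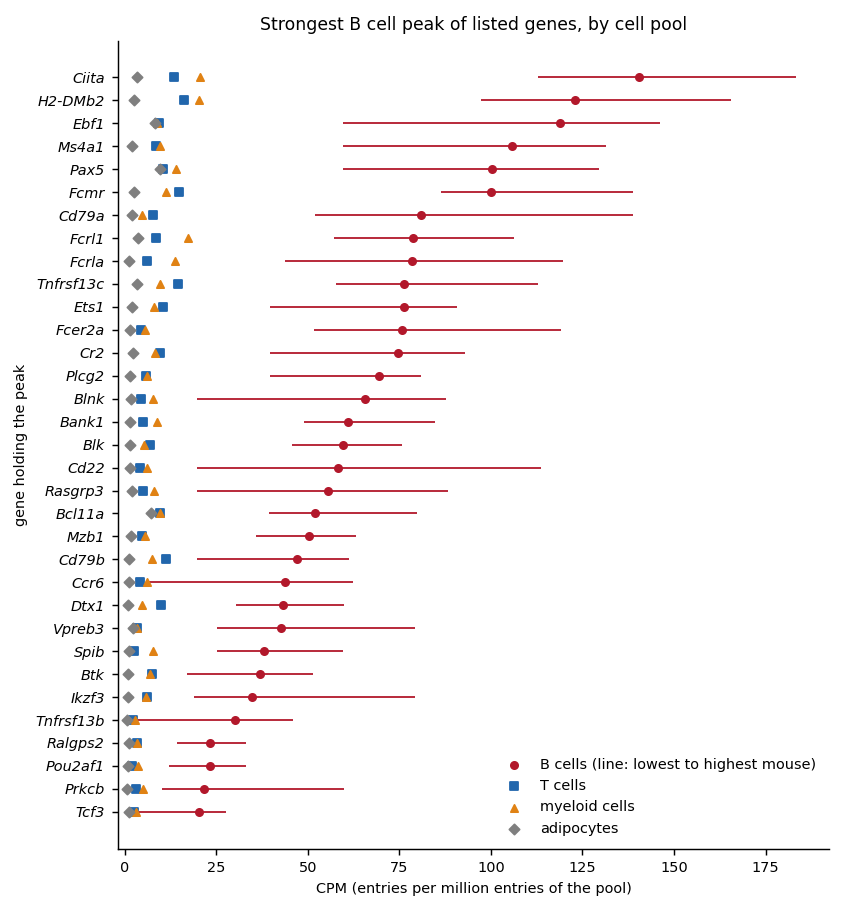
CPM (x axis) of the strongest B cell peak of genes on the B cell lists (y axis) in 4 pools. Red circles are B cells with a line from the lowest to the highest mouse, blue squares T cells, orange triangles myeloid cells and grey diamonds adipocytes. *Ciita* at 140 CPM and *H2-DMb2* at 123 stand highest and *Tcf3* at 20.3 lowest, with the other pools to the left in every row.

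Genes of other cell types were set beside the lists. The rule keeps out peaks that are open in the other pools, so that few or no members at such genes follow from it and do not test the label. None of the 145 peaks of 15 T cell genes, 97 of 12 macrophage and dendritic cell genes, 71 of 8 adipocyte genes, 76 of progenitor genes, 77 of endothelial genes and 38 of mural and muscle genes was a member. T cell gene peaks took up 0.0649% of B cell entries and 0.351% of T cell entries, and receptor list peaks 0.207% and 0.0388%. Of 6 genes of lymph node stroma, 5 had 6 peaks in all, and 1 of these was a member, at *Cr2*, which is also on the receptor list. Those 6 peaks took up 0.00825% of B cell entries and 0.00131% of T cell entries, and the part of the lymph node in the B cell nuclei was not tested.

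Members also gathered around a few loci. Distance was taken to the nearest start of a protein-coding or antibody constant gene. By it, 635 genes were nearest to at least 1 member, 460 of them to exactly 1, and 73 genes with at least 3 took in 304 members. *Igkc*, the kappa light chain constant gene, led with 14 of the 90 peaks nearest to it, spread over 1092 kb. *Mef2c*, a factor active in B cells after receptor signals, was nearest to 10 members of 88 peaks, all upstream of its start and none within the gene. *Pax5* was nearest to 10 of 30 and *Grhpr*, a metabolic enzyme gene on the same chromosome, to 7 of 25, between chr4:44893689-44967817.

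*Ets1* was nearest to 9 members, *Ebf1*, *Iglc2* and *Ralgps2* to 8 each and *Cd83*, an activation marker, to 7. *Bank1*, *Bcl11a*, *Chst3*, *Sorl1* and *Tmem163* tied at 6. The lambda locus was the densest: 19 of 39 peaks nearest to its constant genes (48.7%) were members, against 10 of 33 at the heavy chain locus (30.3%) and 14 of 90 at the kappa locus (15.6%). Members share these loci and are not independent of each other.

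By position, members were more often intergenic than peaks in general, at 501 (51.8%) against 42.5% of all peaks, 43.2% of T cell peaks and 43.1% of myeloid peaks. Only protein-coding and antibody constant genes were annotated, so all other genes, antibody variable segments included, counted as intergenic. Introns held 418 (43.2%), untranslated regions 23, coding exons 17 and other exons 9. Within 2000 bases of a gene start lay 66 members (6.82%), against 10.1% of all peaks, 5.43% of T cell peaks and 7.00% of myeloid peaks. Chromosome 1 held 108 members, 11.2% of them, against 7.17% of all peaks. Chromosomes 13, 16 and 19 also held larger shares of members than of peaks (6.30% against 4.67%, 5.37% against 3.73% and 4.24% against 2.96%). Chromosomes 3, 7, 9, 10 and 18 did so by less, and on Y 2 of 42 peaks were members. Members were longer than peaks in general, with a median of 726 bases against 393, and close in length to T cell peaks at 685. The median GC content of the central 300 bases was 46.7% in members and 47.7% in all peaks.

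The rule did not use DNA letters, although the study used transcription factor motifs in naming the cell types. Words of 12 transcription factor families were counted in the central 300 bases of every peak, on both strands. The octamer stood out. It was in 126 members (13.0%), in 1.79% of all peaks, 1.03% of T cell peaks and 1.09% of myeloid peaks, a share 7.26 times that of all peaks. It was not concentrated in the strongest members: by quartiles of B cell CPM, 242 members each, the shares were 10.7%, 14.5% and 14.9% from the weakest upwards, and it was lower again, at 11.98%, in the strongest. Members with the octamer had a median ratio to the next pool of 6.80 and those without it 5.98, with a median CPM of 36.8 and 36.1. None of the 14 members at the kappa locus held it in that window, 3 of 10 did at the heavy chain locus and 2 of 19 at the lambda locus.

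The E-box was the most frequent word, in 339 members (35.0%) against 16.6% of all peaks and 27.1% of T cell peaks. The EBF word was in 109 (11.3%) against 6.83% of all peaks, 2.71% of T cell peaks and 9.67% of adipocyte peaks chosen by the same rule, a cell type that also uses EBF factors. The ETS word of PU.1 was in 98 (10.1%) against 4.86% of all peaks, and the ETS-IRF word in 73 (7.54%) against 3.93%, but both were more frequent in myeloid peaks, at 12.9% and 10.9%. Members with the word of PU.1 were 11.8% of those for which myeloid cells were the next pool and 9.72% of those for which T cells were. The MEF2 word CTAAAAATA was in 18 members (1.86%) against 0.897% of all peaks.

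Some words were more frequent in other lineages. The RUNX word TGTGGTTT was in 51 members (5.27%) against 13.2% of T cell peaks and 3.72% of all peaks. The NF-kB word GGGANTTCC was in 14 (1.45%) against 6.84% of myeloid peaks and 2.27% of all peaks. The AP-1 word TGANTCA was in 83 (8.57%) against 12.3% of all peaks, the CTCF word AGGGGGCGC in 1 against 0.673%, and the C/EBP word TTGCGCAA in none against 0.140%. Over the whole length of the peaks, where members are longer than peaks in general, the order turned for AP-1 (19.4% of members against 17.3% of all peaks) and for NF-kB (3.41% against 3.13%), and for the EBF word against adipocyte peaks (18.8% against 21.1%). The promoter ETS word CCGGAAGT was in 9 members (0.930%) against 0.806% of all peaks, and at more than 2000 bases from a gene start in 9 of 902 (0.998%) against 0.473%. At least 1 of the 5 B cell words was in 567 members (58.6%), against 30.1% of all peaks, 37.1% of T cell peaks and 39.3% of myeloid peaks. At least 2 were in 160 (16.5%), against 3.70%, 3.49% and 7.00%. The words of 1 peak can overlap, as the EBF word can with itself on the other strand, and each word was counted once per peak.

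**Figure D3:**
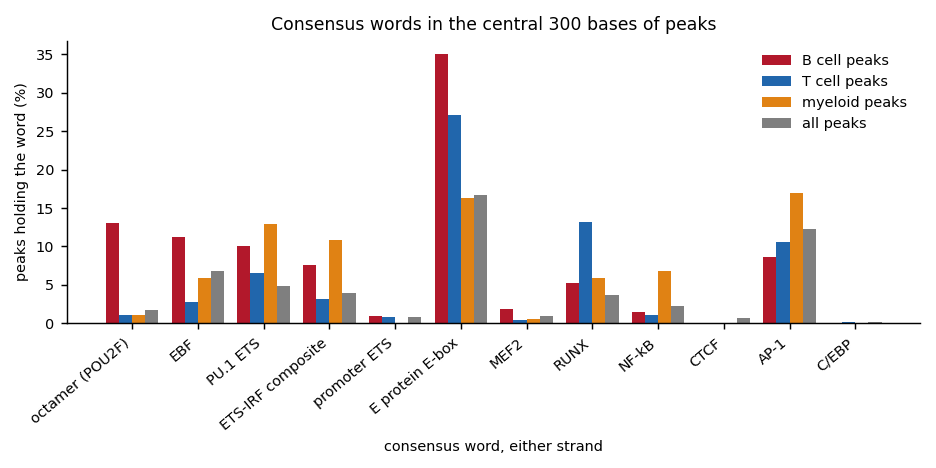
Percentage of peaks (y axis) with each consensus word (x axis) in the central 300 bases, for B cell peaks (red, 968), T cell peaks (blue, 1548), myeloid peaks (orange, 643) and all peaks (grey, 189598). The octamer bar is 13.0% in B cell peaks and under 2% elsewhere, RUNX is highest in T cell peaks at 13.2%, and NF-kB in myeloid peaks at 6.84%.

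The study asked how cold and CL alter chromatin, and few of the B cell peaks passed the test in B cell nuclei. Entries were summed over the B cell nuclei of each mouse and tested with edgeR's quasi-likelihood test over 21628 peaks that passed its filter on low counts, with Benjamini-Hochberg adjustment over all of them. All 968 members passed, as the rule required a B cell CPM of at least 20. In day1C against day0RT, 2 members were higher at an adjusted p under 0.05, against 0.0694% of all peaks tested called in either direction. In day3C, 1 member was lower, against 0.00925% of all peaks. These are 2 and 1 of 968, and the 6 comparisons with day0RT share its 3 mice.

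No member was called in day7C, day1CL, day3CL or day7CL against day0RT, where edgeR called 0.0139%, 0.153%, 0% and 0.0509% of all peaks. None was called between CL and cold on day 1, day 3 or day 7, where 0.00462%, 0.00462% and 0.037% of all peaks were. At an unadjusted p under 0.05 the members numbered 81, 79 and 81 in day1C, day3C and day7C (8.37%, 8.16% and 8.37% of 968), against 7.41%, 6.45% and 7.8% of all peaks. In day1CL, day3CL and day7CL they numbered 82, 72 and 78 (8.47%, 7.44% and 8.06%) against 9.28%, 5.9% and 8.85%. Between CL and cold they numbered 95, 63 and 71 on days 1, 3 and 7 (9.81%, 6.51% and 7.33%) against 8.74%, 4.38% and 5.62%. DESeq2 called no member in any of the 9 comparisons.

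The width of the estimates says what could be missed. The median standard error of a member's log2 change was 0.21 to 0.28 in the comparisons with day0RT and 0.31 in day1CL against day1C. The 95% interval lay within 2-fold in either direction for 939 members in day3C, 859 in day1C and 785 in day1CL, and for 698 in day1CL against day1C. The median log2 change of the members was 0.05 in day1C, -0.01 in day3C and -0.02 in day7C, and -0.03, 0.01 and 0.07 in day1CL, day3CL and day7CL. In CL against cold it was -0.07, 0.04 and 0.09 on days 1, 3 and 7, and the median over all peaks tested lay between -0.02 and 0.01 in the 9 comparisons. With no filter on low counts, where the median over all 184133 peaks lay between -0.04 and 0.14, several of these medians changed sign. They were then -0.14, 0.03 and -0.05 in day1C, day3C and day7C, -0.25, -0.02 and -0.04 in day1CL, day3CL and day7CL, and -0.10, -0.04 and 0.02 in CL against cold, and 279 of 968 members were above 0 in day1C in place of 557. The share of B cell entries in members was 4.24% ± 0.133 (SD, n = 3 mice) in day0RT and between 3.95% ± 0.130, in day1CL, and 4.30% ± 0.252, in day3CL, in the treated groups.

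**Figure D4:**
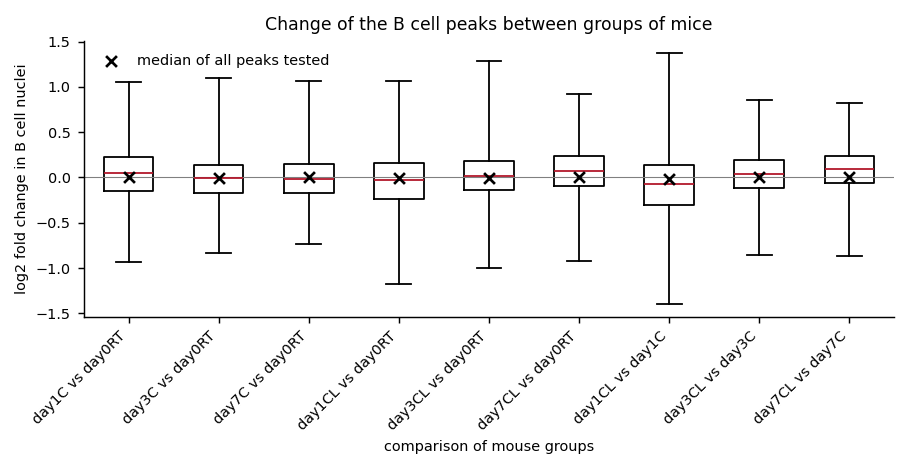
Log2 fold change in B cell nuclei (y axis) of the 968 B cell peaks in each comparison of mouse groups (x axis). Boxes span the quartiles, red lines are medians, whiskers reach the lowest and highest member, and crosses are medians of all peaks tested. Peaks with low counts were left out. Every median lies between -0.07 and 0.09, and whiskers are widest in day1CL against day1C, from -1.40 to 1.37.

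The member at chr12:113227651-113228972, near *Igha*, was higher after 1 day of cold. Its B cell CPM was 144, 143 and 182 in the day1C mice (156 ± 21.9, SD, n = 3) and 109, 123 and 121 in the day0RT mice (118 ± 7.73). The log2 change was 0.54 with a standard error of 0.13 and an adjusted p of 0.0440 in edgeR's test over all peaks. CPM here and below are unscaled shares of entries. The log2 changes come from the fit with TMM scaling, so they can be larger or smaller than the ratio of the mean CPM. Its log2 change was 0.19 in day3C, 0.09 in day7C and 0.29 in day1CL, none of them called. Its central 300 bases hold an octamer and an EBF word in capitals.
Igha downstream, chr12:113228161-113228460: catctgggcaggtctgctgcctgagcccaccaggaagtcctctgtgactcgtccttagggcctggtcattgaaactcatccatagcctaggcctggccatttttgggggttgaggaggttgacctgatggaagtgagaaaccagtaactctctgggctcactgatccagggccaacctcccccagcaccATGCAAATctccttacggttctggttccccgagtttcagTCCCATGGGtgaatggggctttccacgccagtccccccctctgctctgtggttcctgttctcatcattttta

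The member at chr16:19026687-19028081, between genes 34.7 kb from the start of *Iglc1*, another lambda constant gene, was also higher in day1C. Its CPM was 100, 117 and 109 in day1C (109 ± 8.36) and 61.0, 69.0 and 81.4 in day0RT (70.5 ± 10.3). The log2 change was 0.71, with a standard error of 0.16 and an adjusted p of 0.0216 in edgeR's test. In day1CL its CPM was 63.9, 79.4 and 19.8, the last being 1 entry, and the test of day1CL against day1C gave a log2 change of -0.64 with an adjusted p of 0.208. Its sequence holds an E-box and an ETS-IRF word.
Iglc1 downstream, chr16:19027234-19027533: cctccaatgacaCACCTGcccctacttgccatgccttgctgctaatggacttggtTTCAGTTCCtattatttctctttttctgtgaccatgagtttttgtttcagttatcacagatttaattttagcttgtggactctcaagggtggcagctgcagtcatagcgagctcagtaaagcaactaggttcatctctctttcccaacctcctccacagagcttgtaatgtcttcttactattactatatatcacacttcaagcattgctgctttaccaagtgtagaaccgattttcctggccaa

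The member at chr17:26789858-26791177, in an intron of *Bnip1*, which encodes a membrane fusion protein, was lower in day3C. Its CPM was 73.8, 56.7 and 52.9 in day3C (61.1 ± 11.1) and 99.8, 85.8 and 101 in day0RT (95.4 ± 8.40). The peak fell by 0.66 on the log2 scale, with a standard error of 0.14 and an adjusted p of 0.0322 in edgeR's test. Its log2 change was also below 0 in the other 5 treated groups, from -0.64 in day7CL to -0.31 in day7C, none of them called. All of these comparisons share the day0RT mice, so they are not independent of each other.

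The 3 calls depended on the choice of mice, while the log2 changes kept their sign. The *Igha* call was lost when any 1 of the 6 mice compared was left out, with log2 changes from 0.48 to 0.60 in 5 of these fits and 0.37, with an adjusted p of 0.787, without day1C mouse 3. The *Iglc1* call was lost without day0RT mouse 1, day1C mouse 2 or day1C mouse 3 (log2 changes 0.58, 0.66 and 0.71, adjusted p 0.279, 0.348 and 0.386). The *Bnip1* call was kept without day3C mouse 1 (log2 change -0.80, adjusted p 0.00578), the mouse with 87 T cell nuclei, and was lost without any other mouse compared, with log2 changes from -0.70 to -0.56. With the replicate number as a block the *Igha* and *Bnip1* calls were lost (log2 changes 0.52 and -0.64, adjusted p 0.0916 and 0.0653) and the *Iglc1* call was kept (0.68, adjusted p 0.0358). With no filter on low counts all 3 were lost, with log2 changes of 0.34, 0.52 and -0.61 for *Igha*, *Iglc1* and *Bnip1*. DESeq2 gave log2 changes of 0.52, 0.70 and -0.65 for the 3 and an adjusted p near 1.

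**Figure D5:**
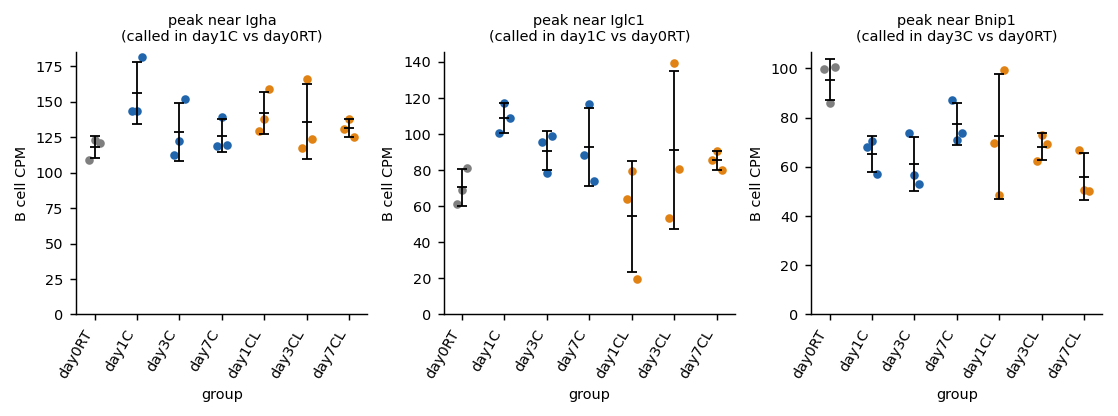
B cell CPM (y axis, from 0) of the 3 called members in each group (x axis), with 1 point per mouse, grey for day0RT, blue for cold and orange for CL, and bars for the mean and SD of 3 mice. The peak near *Igha* is highest in day1C at 156, the peak near *Iglc1* in day1C at 109, and the *Bnip1* peak in day0RT at 95.4.

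Other members of the antibody loci were not called. The counts below take in the called members near *Igha* and *Iglc1*. Members of 1 locus were measured in the same mice and are not replicates. Of the 10 members at the heavy chain locus, 8 had a log2 change above 0 in day1C and the median was 0.25, and of the 19 at the lambda locus 15 did, with a median of 0.18. At the kappa locus 10 of 14 did, with a median of 0.12, against 557 of all 968 members. On day 7 the same loci gave medians of -0.01, -0.11 and -0.11 in the cold. In CL against cold the direction differed by day. On day 1, 3 of 19 lambda members were above 0, with a median of -0.29, against 403 of all 968 members. On day 7, 18 of 19 were, with a median of 0.22, against 636 of all 968. On day 3, 8 of 19 lambda members and 1 of 10 heavy chain members were above 0 (medians -0.02 and -0.25), against 558. With no filter on low counts the medians in day1C were 0.06 at the heavy chain, 0.00 at the lambda and -0.08 at the kappa locus, where 6 of 10, 10 of 19 and 6 of 14 members were above 0, against 279 of all 968.

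The tested peaks at B cell identity genes were not called in any comparison. The *Pax5* member had 107 ± 7.50 CPM in day0RT (SD, n = 3) and between 79.1 ± 17.0, in day1CL, and 109 ± 13.2, in day1C, after treatment. The *Cd79a* member had 84.0 ± 9.51 in day0RT, 101 ± 9.31 in day1C and 72.9 ± 6.61 in day7C, and its largest change, in day1CL against day1C, was -0.64 on the log2 scale with a standard error of 0.20 and an adjusted p of 0.243. The *Ms4a1* member had 110 ± 13.8 in day0RT and 129 ± 2.54 in day3CL, with a log2 change of 0.37 against day3C, a standard error of 0.13 and an adjusted p near 1. Of the tested peaks of the 8 lists of B cell genes, members or not, none was called in any of the 9 comparisons. The filter on low counts left 142 of 433 transcription factor peaks, 43 of 61 receptor peaks and 113 of 321 signalling peaks. It left 54 of 81 antigen presentation peaks and 55 of 85 homing and survival peaks. For germinal centre and plasma cells, B-1 and marginal zone cells and early development it left 9 of 42, 17 of 82 and 6 of 19. The other list peaks were not tested. At an unadjusted p under 0.05, transcription factor peaks numbered 4 to 14 of 142 tested and receptor peaks 1 to 6 of 43. Of all peaks tested, 4.38% to 9.28% had such a p in the 9 comparisons, and 0% to 0.153% were called.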

How the data were processed

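The deposited matrix of 189598 peaks by 32552 nuclei is binary, so the counts deposited by the authors are numbers of nuclei with reads in a peak. Per the methods and processing notes, the authors merged 2 sequencing runs, aligned with Bowtie2 to mm10, removed duplicates per barcode, called peaks with MACS2 per cluster and removed doublets. Several reads of a nucleus in the same peak give the same entry as 1 read, so peaks open in many nuclei can differ by less than their reads would. Here entries were summed per mouse and cell type and tested with edgeR 4.0.16 in R 4.3.3 (TMM, filterByExpr with a minimum count of 10 and total of 15, all 21 mice in 1 fit, two-sided), with DESeq2 1.42.0 as an alternative. The fit was also run on simulated counts with the same spread for all peaks, which cannot show how many calls in the real data are false. Same-numbered mice of different groups did not deviate together (median correlation -0.0016 over 63 pairs, from -0.11 to 0.08). Low counts per peak and mouse pull such correlations towards 0, so they cannot exclude a shared batch. The reporting summary of the study names 3 independent batches without tying them to mouse numbers. Numbers were therefore not used as pairs in the main fit, and a block on number was run as an alternative. Protein-coding and antibody constant genes of GENCODE vM21 on GRCm38, the authors' build, were used, with Python 3.11.15 and pandas 2.3.3. The members, gene lists and words were chosen with earlier results of these data known. Peaks named are the 10 strongest, the 10 with the largest ratios, the strongest of each listed gene, genes nearest to most members and called members. Depth was 50392 to 1654462 B cell entries per mouse. Each mouse is 1 replicate. Some listed genes and sequences are not reported here.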

Additional observations from a re-analysis of the deposited data

How the results depend on the processing

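The number of B cell peaks followed the thresholds: 2319 at 2 times and 237 at 8 times the other pools, and 1499 and 402 at a B cell CPM of at least 10 and 40. With macrophages and dendritic cells as separate pools it was 813, all of them members. With the mean over mice of the CPM of each mouse and pool it was 886, of which 812 were shared. Without the 3 mice with few T cell nuclei, chosen after seeing the data, it was 910, of which 875 were shared. Over the whole peak the words rose with its length: octamer 19.3%, EBF 18.8%, PU.1 14.8%, ETS-IRF 12.4%, E-box 54.96%, RUNX 9.19%, NF-kB 3.41% and AP-1 19.4%, where all peaks had 2.75%, 10.4%, 6.44%, 5.68%, 25.8%, 5.16%, 3.13% and 17.3%. At more than 2000 bases from a gene start the octamer was in 13.5% of members and 1.86% of all peaks.

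Calls over all peaks were few and unstable (15, 2, 3, 33, 0 and 11 in day1C, day3C, day7C, day1CL, day3CL and day7CL against day0RT, and 1, 1 and 8 in CL against cold on days 1, 3 and 7). An adjusted p under 0.10 gave 25 in day1C, 70 in day1CL, 32 in day7CL (2 of them members) and 18 in CL against cold on day 1. With no filter on low counts each comparison gave 0 or 1, and 0 members in day1C and day3C. With B cell nuclei of at least 1000 entries the calls were 4, 0, 0 and 5 in day1C, day3C, day7C and day1CL and 0 in CL against cold on day 1, with 0 members. With only the 2 groups compared they were 0 in day3C (0 members), 0 in day7C and 4 in CL against cold on day 1. DESeq2 gave 9 in day1CL and 0 elsewhere. Without the 3 mice day7C gave 0. Leaving out 1 mouse gave 3 to 15, 0 to 3, 0 to 3, 8 to 32, 0, 3 to 11, 0 to 14, 0 to 6 and 4 to 9 calls in the order above, with 0 to 1 members in day1C, day3C, day1CL and CL against cold on day 3, and 0 in the others. The cause of these differences was not tested. Depth limits single members to the 95% intervals given in the report.

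The replicate number as a block gave 1 call in day3C and 5 in CL against cold on day 1, with 1 member (near *Iglc1*) in day1C and 0 in day3C. The block changed no other count by over 1.5 times.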
